A study of Mus musculus with 16 samples.

Results

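The arrays described here compared donor CD8+ T cells taken from the ovary with donor CD8+ T cells taken from the spleen after allogeneic hematopoietic stem cell transplantation in mice, a setting in which donor T cells attack recipient tissues (graft versus host disease). They were chosen by their titles, and are 7 of the 16 arrays of the series: 4 of ovarian and 3 of splenic allogeneic CD8+ cells. The other arrays held allogeneic CD4+ cells from the ovary (2) and the spleen (2), and splenic CD8+ (3) and CD4+ (2) cells after syngeneic transplantation, in which donor and recipient are genetically matched. All the labels gave a C57BL/6 background and female sex. They gave neither the recipient strain, the conditioning nor the time after transplantation, and no ovarian cells of syngeneic recipients were among the samples. Small numbers of cells were sorted in 2 rounds into a lysis reagent, and their RNA was amplified and labelled with 1 dye (Cy3) for Agilent mouse expression arrays. Whether each replicate is a mouse of its own or a pool is not in the labels, so the p-values reflect the scatter among these arrays, which may be technical.

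CD8+ T cells recognise peptides on MHC class I and kill the cells that display them. Naive cells and central memory cells carry homing receptors such as CCR7, which admit them to lymph nodes, and depend on the IL-7 receptor and the transcription factor TCF-1 (Tcf7). Activated cells lose these and gain effector molecules such as granzymes, perforin and interferon-gamma, and receptors for inflamed tissue such as CXCR3 and CXCR6. The ovary is a steroid-producing organ: theca, luteal and granulosa cells turn cholesterol into progestogens, androgens and oestrogens through enzymes such as CYP11A1 and 3-beta-hydroxysteroid dehydrogenase (Hsd3b1). It also holds resident macrophages, stroma and germ cells, and RNA from any of them can enter a sort of tissue T cells.

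Each value below is a log2 signal relative to the 75th percentile of its array, here called the level, and a difference is the ovarian mean minus the splenic mean of these levels. The 75th percentile of the signal was 190 to 343 intensity units on the ovarian arrays and 189 to 450 on the splenic arrays, and 54.7% to 56.7% of the probes on the ovarian arrays and 52.3% to 59.4% on the splenic arrays were well above background by the scanner software's own flag. Cd8a, a sort marker, was at 5.33 to 5.82 on the ovarian and 5.46 to 5.59 on the splenic arrays, and not well above background on any of the 4 arrays of allogeneic CD4+ cells. Cd4 was well above background on all 7 arrays too, at 1.96 to 2.18 on the ovarian and 1.42 to 2.05 on the splenic arrays of CD8+ cells, against 5.09 to 5.56 and 4.66 to 4.97 on those of ovarian and splenic CD4+ cells. The summed level of 5 T-cell markers was 10.06 to 10.08 on the ovarian and 9.89 to 10.03 on the splenic arrays. The arrays of both tissues were separated along the first principal component (35.7% of the variance), while the second (30.8%) set ovarian replicate 3 and splenic replicate 3, the dimmest array of each tissue, apart from the others. Ovarian replicate 3 also carried more red cell and B-cell signal than the other ovarian arrays: Hbb-bt, a beta globin, had a level of 3.06 there, against -6.48 or lower on the other ovarian arrays and 2.15 to 3.64 on the splenic arrays.

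Ovarian replicates 1, 2 and 4 were closer to each other than any other replicates of one group. Over spots of moderate brightness, with a mean level of 0 to 6, their log2 differences had a robust SD of 0.0869 to 0.115, against 0.271 to 0.306 for the pairs with ovarian replicate 3 and 0.185 to 0.454 over the 12 other pairs of arrays of one group. Copies of one probe on a single one of these 3 arrays differed by an SD of 0.0741 to 0.0806. The labels give the 3 arrays as separate replicates, and p-values over 4 ovarian arrays are too small if they share their RNA. Each call was therefore recomputed with these 3 arrays averaged and counted as 1 sample, which leaves 2 ovarian samples against 3 splenic ones. This second analysis is called the averaged fit below, and its adjusted p stands beside each result.

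Between ovarian and splenic CD8+ cells, 105 of 24769 features differed at an adjusted p under 0.05 (limma, Benjamini-Hochberg over all features), 0.424% of those tested. Of these, 54 were higher in ovarian cells (0.218%) and 51 lower (0.206%), 83 of the 105 carried a gene symbol (45 higher, 38 lower), and 94 differed by at least 2-fold. The arrays of both tissues did not overlap for any of the 105, as was the case for 3193 features in all (12.9%). In the averaged fit 33 features were called (0.133%), 13 of them higher (0.0525%) and 20 lower (0.0807%), and 32 of the 33 were among the 105. Leaving out 1 array moved the count of 105 to 61, 47, 208 and 49 for ovarian replicates 1 to 4, to 55, 59 and 227 for splenic replicates 1 to 3, and to 173 for either splenic CD4+ array. Of the 83 genes, 29 were called in both fits (13 higher, 16 lower), and these lead the account below. The microarray was scanned on 2 slides, each with both tissues, and all 83 calls held with the slide as a block. All 83 differences kept their sign on either slide alone, but arrays that do not overlap fix this in advance, so it is no further test. Where a called gene had further probes that passed the filter on dim probes, 15 of 15 of these, from 11 genes, had the same sign, and of 16 further probes that did not pass it 2 had the opposite sign (for Cp and St6gal1).

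The dimmer calls depended on how low signals were treated. With another background correction (normexp, with quantile normalization) 43 of the 83 calls held, and 48 held when all levels were floored at the dimmest signal measurable on the dimmest of the 16 arrays. That array held splenic CD4+ cells and is outside the comparison. Of the 29 genes called in both fits, 19 held under normexp, 17 at the floor and 16 under both. The calls of Abca1, Adh1, Ccl12, Cp, Fcmr, Il13, Mab21l3, Mgp and A630023P12Rik ended under both alternatives, that of B430306N03Rik under normexp, and those of Krt81, Me1 and Nefl at the floor. Among the genes below that were called in the 4-against-3 fit alone, Apoe, Bcl11a, Ccl7, Cd5l, Cyp11a1, Fcrla and Fscn1 lost their calls under both, and Pou2af1 and Tcf7 under normexp.

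**Figure D1:**
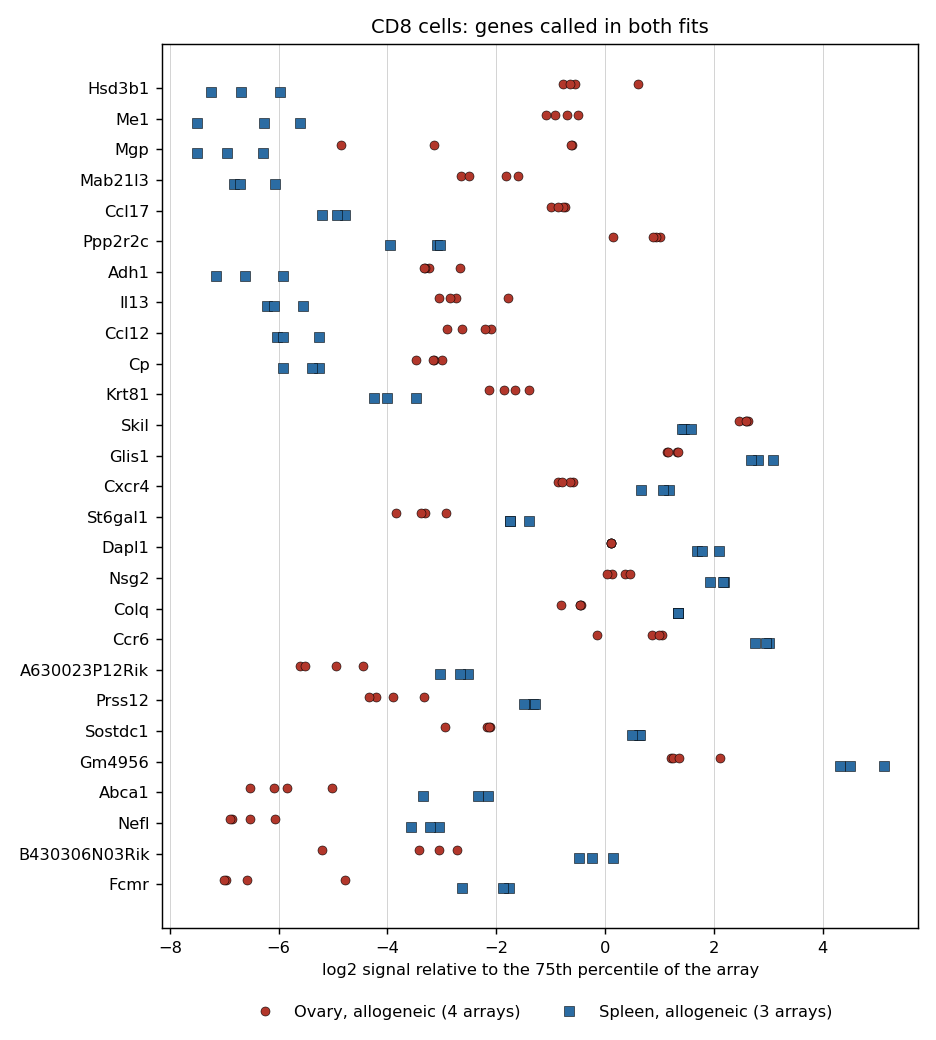
Levels (log2 signal relative to the 75th percentile of the array, x axis) of 27 genes called in both fits, with the 4 ovarian arrays as circles above the 3 splenic arrays as squares, ordered by their difference. Circles and squares overlap for none of the 27 genes, and Hsd3b1 at the top and Fcmr at the bottom have differences of 6.30 and -4.24.

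Enzymes of steroid and retinoid metabolism stood among the genes higher in ovarian cells. Hsd3b1, which converts pregnenolone to progesterone, had levels of 0.61, -0.55, -0.77 and -0.64 on the ovarian arrays, against -7.24, -6.70 and -5.98 on the splenic arrays. Every ovarian array was well above background and no splenic array was. The signal was at least 19.7-fold higher in ovarian cells, where the fold is measured against the dimmest signal that counted as well above background, and the difference was 6.30 ± 0.45 (SE, adjusted p = 0.000164, and 0.00485 in the averaged fit). For other genes with no splenic array, or no ovarian array, well above background, the fold is likewise given as a bound. Cyp11a1, the side-chain cleavage enzyme that starts steroid synthesis from cholesterol, had levels of -3.11, -2.42, -2.65 and -2.60 in ovarian cells, against -6.62, -6.77 and -6.02 in splenic cells, at least 3.85-fold higher (difference 3.78 ± 0.59, adjusted p = 0.0135). Its call was lost in the averaged fit (adjusted p = 0.203), and without any one of ovarian replicates 2 and 4 and splenic replicates 1 and 2 (adjusted p up to 0.0788).

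Few members of this pathway passed the test. Of 14 measured members of the steroid hormone list, 2 rose and none fell (1 and 0 in the averaged fit), with a median difference of 0.43 beside 0.04 over all features. Star, which carries cholesterol into mitochondria, had levels of -2.49, -2.62, -1.66 and -2.61 in ovarian cells and -2.86, -3.31 and -2.59 in splenic cells (adjusted p = 0.60). Cyp19a1, the aromatase, had a difference of 0.55 (adjusted p = 0.75) with no splenic array above background. Lhcgr, the luteinizing hormone receptor of theca and luteal cells, Amh of granulosa cells and the zona pellucida genes Zp1, Zp2 and Zp3 of oocytes were not well above background on any of the 7 arrays. The summed level of 5 theca and luteal markers was 3.31 to 4.24 on the ovarian and -0.77 to 4.53 on the splenic arrays, with a bright Cyp17a1 probe at 3.15 to 4.16 in ovarian and -1.24 to 4.51 in splenic cells. The 5 granulosa markers summed to 4.23 to 4.45 on the ovarian and 4.30 to 4.40 on the splenic arrays, with Foxl2 bright in both. The part of ovarian cells' RNA in the Hsd3b1 and Cyp11a1 differences was not tested. In these bulk samples, more cells of a type and more RNA per cell cannot be told apart.

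Adh1 and Aldh1a1 act in sequence on vitamin A, oxidising retinol to retinal and retinal to retinoic acid. Adh1 had levels of -3.24, -3.31, -2.67 and -3.32 in ovarian cells and -7.15, -6.61 and -5.92 in splenic cells, at least 2.83-fold higher (adjusted p = 0.000286, and 0.00927 in the averaged fit). Aldh1a1 was at -0.40, 0.09, -0.68 and 0.09 in ovarian cells, against -4.49, -3.55 and -3.54 in splenic cells, a 12.5-fold difference (adjusted p = 0.00269, and 0.0702 in the averaged fit). Both genes were clearly separated by tissue, yet Adh1 was above background in syngeneic splenic cells too, at -3.06 to -2.26, a range that reaches above the ovarian levels. Adh1 is not on the retinoid list. Of the 12 measured genes of that list Aldh1a1 was the only call (0 of 12 in the averaged fit), and the receptors Rara and Rxrb had differences of -0.03 and 0.17.

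Me1 and Mgp differed by similar amounts but not with similar spread. Me1 is the cytosolic malic enzyme, which supplies NADPH for lipid and steroid synthesis. Its levels were -0.92, -0.50, -1.08 and -0.70 in ovarian cells and -7.51, -5.61 and -6.28 in splenic cells, at least 14.3-fold higher (difference 5.66 ± 0.56, adjusted p = 0.000744, and 0.0204 in the averaged fit). Mgp, the matrix Gla protein of stroma and cartilage, was at -4.85, -0.61, -3.15 and -0.63 in ovarian cells and -7.51, -6.96 and -6.29 in splenic cells, at least 5.02-fold higher (adjusted p = 0.0291, and 0.00617 in the averaged fit). The ovarian arrays thus spread over more than 4 log2 units for Mgp, and its call was lost without any one of ovarian replicates 2 and 4 and splenic replicates 1 and 2 (adjusted p up to 0.15). Averaging replicates 1, 2 and 4 leaves the spread among them out, so the smaller adjusted p of the averaged fit adds no support. The bound of 5.02-fold applies to the ovarian mean, since replicate 1 lay below the splenic limit of -4.64 used for it. Mgp was the one call among 10 measured stromal and matrix genes (median difference 0.32). Col3a1 and Pdgfra were not above background on any of the 7 arrays, the 5 stromal markers summed to -1.07 to -0.80 on the ovarian and -1.13 to -0.82 on the splenic arrays, and the part of stromal RNA in the Mgp difference was not tested.

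Chemokines were among the genes that rose in ovarian cells. Of 17 measured, 3 rose and none fell (2 and 0 in the averaged fit), 9 of 17 were higher without overlap against 7.74% of all features, and their median difference was 1.04 beside 0.04 over all features. Only 10 of the 17 were well above background on all 7 arrays, against 22322 of 24769 features. The others passed the filter through 1 tissue alone, which by itself favours non-overlap and larger differences. Ccl17, a ligand of CCR4 made by dendritic cells and macrophages, was at -0.74, -0.99, -0.77 and -0.86 in ovarian cells and -4.79, -4.94 and -5.20 in splenic cells (difference 4.13 ± 0.36, adjusted p = 0.000286, and 0.0103 in the averaged fit). Ccl12, a mouse monocyte attractant that binds CCR2, was at -2.62, -2.10, -2.91 and -2.20 in ovarian cells and -6.04, -5.27 and -5.93 in splenic cells, at least 4.54-fold higher (adjusted p = 0.000751, and 0.0225 in the averaged fit). Only 1 of the 3 splenic arrays was well above background for Ccl17 and none for Ccl12, so the splenic levels of both are at the limit of what the arrays measured and no fold is given for Ccl17. For both genes every ovarian array stood above every splenic one, and both calls held without any one of the 7 arrays. The Ccl17 call also held under normexp and at the floor, where its differences were 1.37 and 1.66. That of Ccl12 ended there, with differences of 0.61 and 0.18 and adjusted p-values of 0.578 and 1.

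Ccl7, another monocyte attractant, was at least 2.67-fold higher, at -3.53 to -3.05 in ovarian and -7.17 to -6.00 in splenic cells (adjusted p = 0.0149). That call was lost in the averaged fit (adjusted p = 0.236) and without any one of ovarian replicates 2 and 4 and splenic replicates 1 and 2 (up to 0.096). Ccl8, related to both, had the largest difference of the chemokines but missed the threshold: 1.76, 2.30, 1.68 and 2.25 in ovarian cells, against -1.98, -1.34 and -4.84 in splenic cells (difference 4.72 ± 0.95, adjusted p = 0.0587). Splenic replicate 3 was the low array and the one not well above background. Of chemokines that T cells themselves make, Ccl1 was at 1.69, 1.29, 2.50 and 1.36 in ovarian cells and -1.09, -0.18 and -0.76 in splenic cells. Its arrays did not overlap, but its difference of 2.38 did not pass the test (adjusted p = 0.37), nor did those of Xcl1 (1.30, adjusted p = 0.43) and Ccl4 (0.30, adjusted p = 0.94).

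Macrophage markers moved unevenly beside these chemokines. The summed level of the 7 markers measured was 2.92 to 3.06 on the ovarian and 2.78 to 3.01 on the splenic arrays, a sum carried by a bright Csf1r probe at 2.40 to 2.68 in ovarian and 1.93 to 2.67 in splenic cells. C1qa, a complement subunit of tissue macrophages, was at -0.99, -0.57, -1.39 and -0.83 in ovarian cells and -1.81, -2.17 and -5.12 in splenic cells (adjusted p = 0.27). The other subunits C1qb and C1qc were also higher without overlap, with differences of 0.67 and 1.97, and the macrophage receptor Adgre1 had a difference of 1.21 (adjusted p = 0.48 to 0.64 for these 3), with splenic replicate 3 the lowest array for each. Apoe, the lipid carrier protein that macrophages secrete, rose 3.39-fold (1.19, 1.59, 1.56 and 1.55 in ovarian cells, against -0.10, 0.04 and -0.80 in splenic cells). Its adjusted p of 0.0456 went to between 0.0588 and 0.151 when any one of the 7 arrays was left out, and to 0.393 in the averaged fit. Cd5l, a protein secreted by splenic red pulp and liver macrophages, went the other way: -5.00, -5.48, -4.34 and -5.22 in ovarian cells, none above background, against 0.89, 0.58 and -2.32 in splenic cells, at least 19.7-fold lower (adjusted p = 0.0267, and 0.371 in the averaged fit). It lost its call without any one of ovarian replicates 1, 2 and 4 and splenic replicates 1 and 2. Of 20 measured macrophage and monocyte genes, Apoe and Cd5l were the calls (0 of 20 in the averaged fit, median difference 0.28). At an unadjusted p under 0.05 (limma) there were 9 of the 20, beside 1989 of 24769 features, and 6 were higher without overlap against 7.74% of all features. Only 10 of the 20 were well above background on all 7 arrays, against 22322 of 24769 features, so these shares compare unlike genes. The part of macrophage RNA in the chemokine differences was not tested.

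Ccl17 is known as a gene that STAT6, the transcription factor downstream of IL-4 and IL-13, can induce. Its promoter window (RefSeq, GRCm38.p6, chr8:94810203-94810502, plus strand, 250 bases before to 50 bases after the start) is shown because Ccl17 and Il13 both rose, with the STAT6-type pattern, TTC and GAA with 4 bases of any kind between them, in capitals. It begins 154 bases before the start.
Ccl17: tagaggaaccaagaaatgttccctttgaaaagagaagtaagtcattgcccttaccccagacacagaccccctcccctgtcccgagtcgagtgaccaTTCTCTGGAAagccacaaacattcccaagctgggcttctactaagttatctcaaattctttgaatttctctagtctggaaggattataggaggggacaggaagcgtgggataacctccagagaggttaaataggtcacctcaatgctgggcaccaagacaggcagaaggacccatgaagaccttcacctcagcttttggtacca
This palindromic pattern, read once for both strands, occurs in 6.95% of 32851 such windows. It occurs in 9.3% of the 43 windows of called genes higher in ovarian cells and in 8.89% of the 45 windows of called genes lower in ovarian cells, so the match is a description of this window only.

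Il13, a type 2 cytokine made by helper T cells and by some CD8+ cells, was the only call among 17 measured T-cell cytokines. It was at -2.74, -3.06, -1.78 and -2.86 in ovarian cells and -6.22, -5.56 and -6.08 in splenic cells, at least 4.08-fold higher (difference 3.35 ± 0.43, adjusted p = 0.00269, and 0.0333 in the averaged fit). All 4 ovarian arrays and no splenic array were well above background. Ifng, the main CD8 cytokine, had levels of 6.71 to 8.02 in ovarian and 6.55 to 7.64 in splenic cells (adjusted p = 0.92), and Tnf a difference of 1.05 (adjusted p = 0.22). Il10, which restrains inflammation, had a difference of -2.03 (adjusted p = 0.095) and Csf1, a macrophage growth factor, one of -1.83 (adjusted p = 0.072).

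Lymphotoxin alpha and 2 inhibitors of cytokine signalling also rose. Lta, a TNF family cytokine that organises lymphoid tissue, was at -0.70, -0.73, -0.87 and -0.75 in ovarian cells and -1.68, -1.80 and -1.85 in splenic cells, 2.02-fold higher (adjusted p = 0.00135, and 0.062 in the averaged fit). Skil, a repressor of TGF-beta and SMAD signalling that TGF-beta itself induces, was at 2.59, 2.63, 2.46 and 2.59 in ovarian cells and 1.46, 1.42 and 1.58 in splenic cells, 2.12-fold higher (adjusted p = 0.000751, and 0.0333 in the averaged fit). Cish, a SOCS family inhibitor that STAT5 induces after IL-2, was at 4.73, 4.76, 4.32 and 4.82 in ovarian cells, against 3.47, 3.42 and 3.42 in splenic cells, 2.33-fold higher (adjusted p = 0.00269, and 0.109 in the averaged fit). These were differences of 1.02 to 1.22 log2 units, and the groups did not overlap. Skil and Cish were the 2 calls among 39 measured cytokine receptor and signalling genes (1 in the averaged fit, median difference 0.14), and Socs2, another SOCS family member, had a difference of 1.84 (adjusted p = 0.11).

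The Cish window (RefSeq, GRCm38.p6, chr9:107296409-107296708, plus strand) is shown for the STAT letters TTCNNNGAA, in capitals, which occur at the start and 11 bases after it.
Cish: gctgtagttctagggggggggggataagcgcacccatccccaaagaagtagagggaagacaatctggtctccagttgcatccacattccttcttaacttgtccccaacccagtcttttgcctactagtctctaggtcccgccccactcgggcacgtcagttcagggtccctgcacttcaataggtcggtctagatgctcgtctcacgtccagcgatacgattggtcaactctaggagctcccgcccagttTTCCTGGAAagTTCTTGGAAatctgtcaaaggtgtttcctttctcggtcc
They occur in 8.3% of all windows, in 11.6% of those of called genes higher in ovarian cells and in 15.6% of those lower, on either strand of a palindrome read once.

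Some enzymes of cholesterol synthesis were higher in ovarian than in splenic allogeneic cells, in the 4-against-3 fit alone, and the cholesterol exporter Abca1 was lower. Abca1 was at -5.84, -5.02, -6.09 and -6.53 in ovarian cells, none above background, and at -3.35, -2.33 and -2.15 in splenic cells, at least 3.93-fold lower (difference -3.26 ± 0.41, adjusted p = 0.00269, and 0.0214 in the averaged fit). This call held without any one of the 7 arrays, but ended under normexp (difference -0.58, adjusted p = 0.343) and at the floor (difference -0.18, adjusted p = 1). Sqle, the squalene epoxidase, was at 2.50, 2.74, 2.92 and 2.71 in ovarian cells and 1.48, 1.40 and 1.30 in splenic cells, 2.51-fold higher (adjusted p = 0.008, and 0.102 in the averaged fit).

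Idi1 and Fdps, which make and join isoprenoid units, rose 1.91-fold and 1.94-fold. Idi1 was at 2.29, 2.19, 2.21 and 2.05 in ovarian cells and 1.37, 1.18 and 1.19 in splenic cells, and Fdps at 2.95 to 3.05 in ovarian and 1.91 to 2.20 in splenic cells. Their adjusted p-values of 0.0188 and 0.047 went to 0.287 and 0.464 in the averaged fit. Fdps lost its call without any one of the 7 arrays, and Idi1 without any one but ovarian or splenic replicate 3. In syngeneic splenic CD8+ cells Sqle was at 2.11 to 2.55, Idi1 at 1.64 to 2.14 and Fdps at 2.73 to 3.21. These ranges lay above the splenic allogeneic levels and overlapped the ovarian ones. Abca1 was at -0.22 to -0.09 in syngeneic cells, above both allogeneic groups. Of 36 measured sterol genes, 5 rose and 1 fell (1 and 1 in the averaged fit), 25 had a positive difference, and the median was 0.19 beside 0.04 over all features. The rest were smaller: Abcg1, another exporter, had a difference of -0.60 (adjusted p = 0.062), and Mvk, Hsd17b7 and Msmo1 of the same synthesis route 0.38, 0.43 and 0.53 with adjusted p-values of 0.36 or more.

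**Figure D2:**
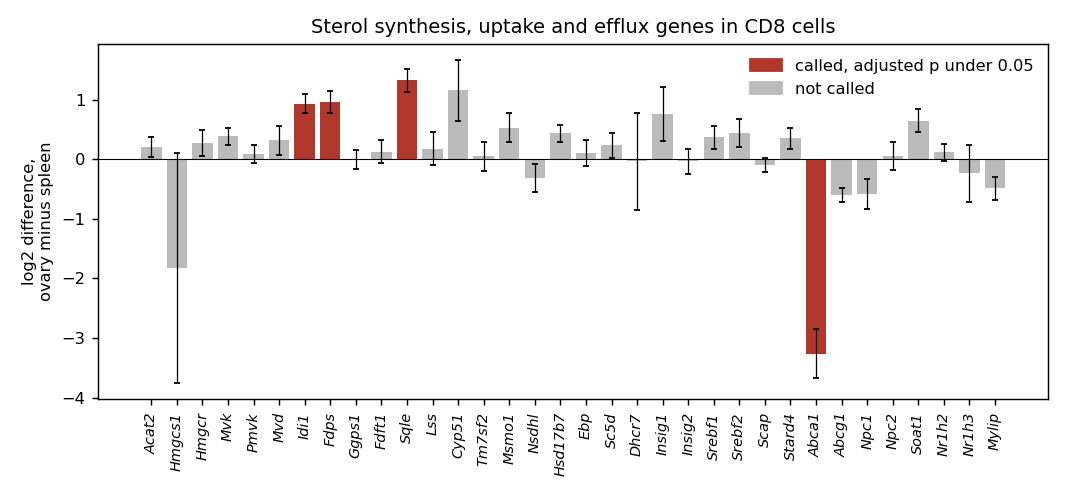
Log2 differences, ovary minus spleen, with SE (y axis) of 34 measured sterol genes (x axis), in red where called and grey where not. Abca1 at -3.26 is the one called bar below 0, and 23 of the 34 bars are above 0.

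The Idi1 window (RefSeq, GRCm38.p6, chr13:8885356-8885655, plus strand) is shown for its CCAAT boxes, which NF-Y binds beside sterol response elements. The capitals mark ATTGG, the box on the minus strand, 45 and 14 bases before the start.
Idi1: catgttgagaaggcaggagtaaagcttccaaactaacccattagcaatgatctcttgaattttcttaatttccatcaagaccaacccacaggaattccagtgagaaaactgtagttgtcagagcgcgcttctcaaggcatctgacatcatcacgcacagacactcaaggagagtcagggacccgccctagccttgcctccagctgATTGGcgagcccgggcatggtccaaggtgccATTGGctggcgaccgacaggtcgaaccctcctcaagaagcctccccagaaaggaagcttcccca
CCAAT on either strand occurs in 37.4% of all windows, in 37.2% of the windows of called genes higher in ovarian cells and in 33.3% of those lower. The SREBP letters TCACNCCAC, searched on both strands, occur in 1.24% of all windows and in 0 of the 88 windows of called genes. No window was listed for Sqle and Fdps.

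Another 4 genes called higher in both fits belong to no pathway on the lists. Ppp2r2c, a regulatory subunit of protein phosphatase 2A best known from brain, was at 1.02, 0.95, 0.15 and 0.89 in ovarian cells and -3.08, -3.03 and -3.96 in splenic cells, 17.2-fold higher with 2 of 3 splenic arrays well above background (difference 4.11 ± 0.36, adjusted p = 0.000286, and 0.0104 in the averaged fit). Mab21l3 was at -1.60, -2.66, -1.83 and -2.50 in ovarian cells and -6.83, -6.71 and -6.08 in splenic cells, at least 5.64-fold higher (adjusted p = 0.000373, and 0.00927 in the averaged fit). In syngeneic splenic CD8+ cells no array was above background for Ppp2r2c, and all 3 were for Mab21l3, at -0.87 to 0.58. Cp, the copper-carrying ferroxidase ceruloplasmin, was at -3.47 to -3.00 in ovarian and -5.93 to -5.26 in splenic cells, at least 2.72-fold higher (adjusted p = 0.000991, and 0.0231 in the averaged fit). Krt81, a hair keratin whose close paralogs make its probe uncertain, was 4.44-fold higher, at -2.14 to -1.40 in ovarian and -4.25 to -3.48 in splenic cells, 2 of 3 well above background (adjusted p = 0.000751, and 0.0204 in the averaged fit).

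Cdh1, Vipr2 and Osgin1 were called in the 4-against-3 fit alone. E-cadherin, encoded by Cdh1, is the ligand of the residency integrin CD103 and is itself found on some T cells. It was at -0.62, -0.61, -1.03 and -0.63 in ovarian cells and -4.33, -5.37 and -3.77 in splenic cells, 13.6-fold higher with 2 of 3 splenic arrays well above background (adjusted p = 0.0168, and 0.287 in the averaged fit), a call lost without any array but the third replicate of each tissue. Vipr2, a receptor for vasoactive intestinal peptide, was at 0.52, 0.61, -0.67 and 0.57 in ovarian cells and -3.14, -2.67 and -3.10 in splenic cells, 9.37-fold higher (adjusted p = 0.0116, and 0.264 in the averaged fit), a call lost without ovarian replicate 2 or 4 or splenic replicate 1. Among 36 measured genes of tissue residency and adhesion, Cdh1 and Osgin1 rose and 1 gene fell (0 and 1 in the averaged fit). The collagen-binding integrin Itga1 had a difference of 1.59 (adjusted p = 0.19). Epithelial markers beside Cdh1 were mixed: Krt8 was not above background on any of the 7 arrays, Epcam was at -2.80 to -2.27 in ovarian and -2.74 to -2.05 in splenic cells, the 4 markers summed to 0.18 to 0.33 on the ovarian and -0.83 to -0.16 on the splenic arrays, and their part in the Cdh1 difference was not tested.

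Genes of the naive and memory state were among those that fell in ovarian cells. Dapl1, expressed in naive and memory T cells, was at 0.12, 0.10, 0.12 and 0.12 in ovarian cells, against 1.68, 1.77 and 2.09 in splenic cells, 3.33-fold lower (adjusted p = 0.00123, and 0.0369 in the averaged fit). The tissues did not overlap, and the call held without any one of the 7 arrays. Tcf7, the factor that keeps T cells self-renewing, was at 0.76, 0.62, 0.96 and 0.56 in ovarian cells and 1.68, 1.78 and 1.67 in splenic cells, 1.98-fold lower (adjusted p = 0.00202, and 0.0734 in the averaged fit). Il7r, the IL-7 receptor chain, was at 2.17, 2.20, 1.93 and 2.06 in ovarian cells and 3.56, 3.47 and 2.87 in splenic cells, 2.32-fold lower (adjusted p = 0.0336, and 0.339 in the averaged fit), and lost its call without any one of the arrays but splenic replicate 3.

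Of 28 measured genes of the naive and memory list, 4 fell and none rose (2 and 0 in the averaged fit). The median difference was -0.37 beside 0.04 over all features, and 21 of 28 were negative. Ccr7, the lymph node homing receptor, was at 1.83 to 2.16 in ovarian and 2.52 to 2.81 in splenic cells (difference -0.71, adjusted p = 0.23), and Klf2, the transcription factor that drives S1pr1, at 5.84 to 6.30 in ovarian and 6.65 to 6.74 in splenic cells (difference -0.69, adjusted p = 0.21). S1pr1, the receptor for lymph egress, overlapped between tissues. In syngeneic splenic CD8+ cells these genes stood above both allogeneic groups: Dapl1 at 5.82 to 6.54, Il7r at 5.24 to 5.31, Tcf7 at 3.89 to 3.93 and Ccr7 at 7.11 to 7.13. The order of the levels was therefore ovarian allogeneic, splenic allogeneic, splenic syngeneic, from low to high.

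**Figure D3:**
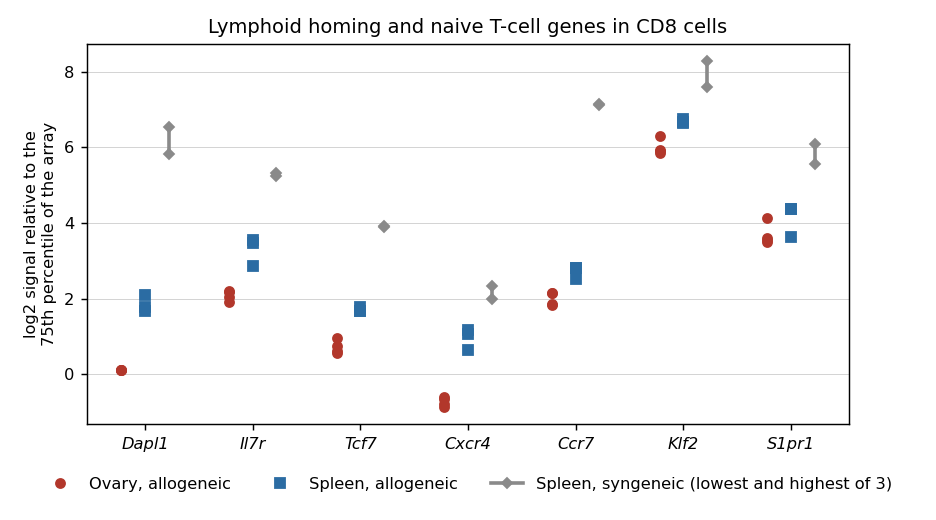
Levels (log2 signal relative to the 75th percentile of the array, y axis) of 7 homing and naive T-cell genes in ovarian allogeneic (circles, 4 arrays), splenic allogeneic (squares, 3 arrays) and splenic syngeneic CD8+ cells (diamonds, lowest and highest of 3 arrays). Ovarian cells are lowest for all but S1pr1, whose ovarian and splenic allogeneic arrays overlap.

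Chemokine receptors divided in the same comparison. Cxcr4, the receptor for CXCL12 that retains cells in marrow and lymphoid tissue, was at -0.59, -0.86, -0.65 and -0.79 in ovarian cells and 1.17, 1.07 and 0.65 in splenic cells, 3.22-fold lower (adjusted p = 0.000984, and 0.0285 in the averaged fit). Ccr6, the CCL20 receptor, was at -0.15 to 1.05 in ovarian cells, lowest on replicate 3, and 3.02, 2.95 and 2.75 in splenic cells, 4.65-fold lower (adjusted p = 0.0022, and 0.0204 in the averaged fit). These were the 2 calls among 23 measured chemokine receptors, in both fits. In syngeneic splenic cells Cxcr4 was at 1.99 to 2.33, above both allogeneic groups, while Ccr6 was at -0.25 to 0.30, overlapping the ovarian range. Cxcr6, a receptor of tissue-resident and exhausted CD8+ cells, was at 8.28, 8.31, 8.02 and 8.30 in ovarian cells, above 7.39, 7.45 and 7.72 in splenic cells, but did not pass the test (difference 0.71, adjusted p = 0.15). Cxcr3 was at 6.31 to 6.62 in ovarian and 5.67 to 6.51 in splenic cells (adjusted p = 0.82).

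Several further genes fell in both fits or, for Gjb2 and Tsc22d3, in the 4-against-3 fit alone. For most of them the level in syngeneic splenic cells is given too. Nsg2, a vesicle protein of neurons, was at 0.37, 0.13, 0.47 and 0.04 in ovarian cells and 2.19, 2.18 and 1.93 in splenic cells, 3.59-fold lower (adjusted p = 0.000184, and 0.00909 in the averaged fit). Prss12, the serine protease neurotrypsin, was 5.94-fold lower, at -4.33 to -3.33 in ovarian cells, where 2 of 4 arrays were well above background, and at -1.50 to -1.28 in splenic cells (adjusted p = 0.000751, and 0.00927 in the averaged fit). St6gal1, the sialyltransferase that caps N-glycans, was 3.33-fold lower, at -3.84 to -2.93 in ovarian and -1.75 to -1.40 in splenic cells (adjusted p = 0.000991, and 0.0204 in the averaged fit). These 3 were higher in syngeneic than in both allogeneic groups, at 5.52 to 5.61, 3.36 to 3.83 and 1.61 to 1.77, as Dapl1 was.

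Sostdc1, an antagonist of BMP and Wnt signals, was at -2.16, -2.12, -2.94 and -2.13 in ovarian cells and 0.63, 0.65 and 0.50 in splenic cells, 7.63-fold lower (adjusted p = 0.00136, and 0.0231 in the averaged fit), and no syngeneic array was above background. Gm4956, a predicted gene, was at 1.21, 1.24, 2.11 and 1.37 in ovarian cells and 4.51, 4.32 and 5.13 in splenic cells, 9.01-fold lower (adjusted p = 0.000751, and 0.0244 in the averaged fit), and at -3.07 to -2.42 in syngeneic cells. Glis1, a Kruppel-like zinc finger factor, was at 1.15, 1.33, 1.15 and 1.33 in ovarian cells and 2.82, 2.68 and 3.09 in splenic cells, 3.07-fold lower (adjusted p = 0.000286, and 0.0103 in the averaged fit), and at -1.33 to -0.93 in syngeneic cells. For these 3 the splenic allogeneic cells stood highest of the 3 groups. Nefl, the light neurofilament, was at -6.89 to -6.07 in ovarian cells, none above background, and at -3.58 to -3.05 in splenic cells, at least 2.46-fold lower (adjusted p = 0.00135, and 0.0399 in the averaged fit), with no syngeneic array above background. Colq, the collagen tail of acetylcholinesterase, was 3.68-fold lower, at -0.81 to -0.45 in ovarian and 1.33 to 1.34 in splenic cells (adjusted p = 0.00257, and 0.0456 in the averaged fit). Gjb2, the gap junction protein connexin 26, was 13.1-fold lower, at -3.45, -3.77, -2.19 and -3.10 in ovarian cells and 0.29, 0.29 and 1.16 in splenic cells, and was not called in the averaged fit (adjusted p = 0.00257, and 0.0639 in the averaged fit). Tsc22d3, a gene that glucocorticoids induce, was 2.69-fold lower, at 2.67 to 3.18 in ovarian and 3.97 to 4.57 in splenic cells (adjusted p = 0.00662, and 0.167 in the averaged fit). In syngeneic cells Colq was at -0.56 to 0.03 and Tsc22d3 at 5.66 to 6.11, and no array was above background for Gjb2. Over the 51 features called lower, syngeneic arrays lay entirely above the splenic allogeneic ones for 25 and entirely below them for 23. How often these 2 splenic groups separate over all features was not counted, so these counts do not set the called features apart. The genes A630023P12Rik and B430306N03Rik fell in both fits too, and B430306N03Rik lost its call without splenic replicate 1 or 2 (adjusted p up to 0.077).

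Some B-cell genes fell in ovarian cells, and B-cell markers moved with them. Fcmr, the Fc receptor for IgM, was at -6.96, -7.01, -4.78 and -6.58 in ovarian cells, none above background, and at -1.77, -1.87 and -2.64 in splenic cells, at least 5.62-fold lower (adjusted p = 0.00158, and 0.0406 in the averaged fit). Fcrla, a B-cell Fc receptor-like protein, fell at least 2.79-fold and Pou2af1, a B-cell coactivator, 5.13-fold, with adjusted p-values of 0.0188 and 0.0261 that went to 0.339 and 0.254 in the averaged fit. Of 15 measured B-cell genes, 3 fell and none rose (1 and 0 in the averaged fit), 12 were lower without overlap against 5.15% of all features, and the median difference was -2.25. Only 8 of the 15 were well above background on all 7 arrays, against 22322 of 24769 features. The others passed the filter through 1 tissue alone, which by itself favours non-overlap. The summed level of 5 B-cell markers was 0.36, 0.25, 1.11 and 0.25 on the ovarian arrays and 1.78, 2.17 and 1.33 on the splenic arrays. Ms4a1, which encodes CD20, was at -6.87, -6.89, -1.41 and -6.50 in ovarian cells and -0.95, -0.66 and -1.36 in splenic cells. Ovarian replicate 3 thus stood beside the splenic arrays for this gene, and the part of B-cell RNA in the other differences was not tested. Bcl11a, a factor of B-cell and dendritic progenitors, was at -4.24, -6.14, -5.26 and -6.50 in ovarian cells, where 1 of 4 arrays was well above background, and at -2.32, -2.38 and -1.82 in splenic cells. Its difference was -3.36 (adjusted p = 0.0188, and 0.062 in the averaged fit), and it lost its call without any one of ovarian replicates 2 and 4 and splenic replicates 1 and 2.

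Genes of MHC class II presentation stood on a list that also holds dendritic cell genes. Its 21 measured members had a median difference of -0.94, beside 0.04 over all features. Of the 21, 12 were lower and 3 higher without overlap, against 5.15% and 7.74% of all features. Of the 21, 18 were well above background on all 7 arrays, against 22322 of 24769 features. Fscn1, which bundles actin in mature dendritic cells, was the one call of the 4-against-3 fit, and was higher in ovarian cells (difference 2.66, adjusted p = 0.0462, and 0.451 in the averaged fit). H2-Ob, a class II chaperone subunit of B cells, was called in the averaged fit alone (difference -3.65, adjusted p = 0.105 in the 4-against-3 fit). H2-Aa was at -1.01, -0.49, -0.56 and -0.41 in ovarian cells and 1.24, 1.01 and 1.85 in splenic cells and missed the threshold (adjusted p = 0.0518).

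No gene of the cytotoxic and exhaustion lists passed the test. Gzma, granzyme A, was at 7.08, 7.30, 8.23 and 7.27 in ovarian cells and 8.41, 8.53 and 9.36 in splenic cells (difference -1.30 ± 0.66, adjusted p = 0.66). Prf1, perforin, was at 3.64, 3.73, 3.81 and 3.65 in ovarian cells and 4.48, 4.44 and 4.19 in splenic cells, and came nearest to the threshold of the 20 measured cytotoxic genes (difference -0.66 ± 0.14, adjusted p = 0.0756). Gzmb had a difference of -0.39 ± 0.41 (adjusted p = 0.87) with 2 splenic arrays, since the spot of splenic replicate 1 was an outlier. The splenic arrays were the higher ones for all 3 granule genes, but none of the 20 was called by limma in either fit. At an unadjusted p under 0.05 there were 6 of the 20, beside 1989 of 24769 features in all. Of 18 inhibitory receptors and 35 effector and exhaustion transcription factors none was called either (2 and 5 at an unadjusted p under 0.05): Pdcd1, which encodes PD-1, was at 6.51 to 7.04 in ovarian and 6.55 to 6.73 in splenic cells (adjusted p = 0.88), and Havcr2, which encodes TIM-3, at 4.19 to 4.55 in ovarian and 4.18 to 4.85 in splenic cells (adjusted p = 0.997). Tbx21, the effector factor T-bet, was at 5.49 to 5.58 in ovarian and 4.93 to 5.50 in splenic cells (adjusted p = 0.92) and Eomes, its relative, at 5.21 to 5.71 in ovarian and 5.35 to 5.71 in splenic cells (adjusted p = 0.94). These p-values do not show that the levels were equal.

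Syngeneic cells stood apart from both allogeneic groups in several of these genes, a comparison given as levels without a test. Pdcd1 was at -0.29 to 0.90, Gzmb at -2.47 to -0.49, Gzma at 2.49 to 2.80, Tbx21 at 1.70 to 3.31 and Havcr2 at 0.79 to 2.56 on the syngeneic arrays. Each of these ranges lay below both allogeneic tissues.

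Proliferation and housekeeping lists held no limma call. At an unadjusted p under 0.05 the mitosis list held 4 genes and the ribosomal list 0, beside 1989 of 24769 features in all. Of 44 measured genes of mitosis and DNA replication 39 had a negative difference, with a median of -0.21, and Mki67 was at 5.53 to 5.78 in ovarian and 5.68 to 5.90 in splenic cells (adjusted p = 0.97). Of 39 ribosomal protein genes 38 had a positive difference, with a median of 0.12. The interferon lists had medians of 0.06 (type I, 25 genes) and -0.01 (interferon-gamma, 22 genes). Over all 40 lists, 17 held at least 1 call and 23 held none, with medians of -0.61 to 0.26 in the lists without a call. The lowest of these was the list of neutrophil, erythroid and platelet genes, with globin signal on the splenic arrays and ovarian replicate 3.

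**Figure D4:**
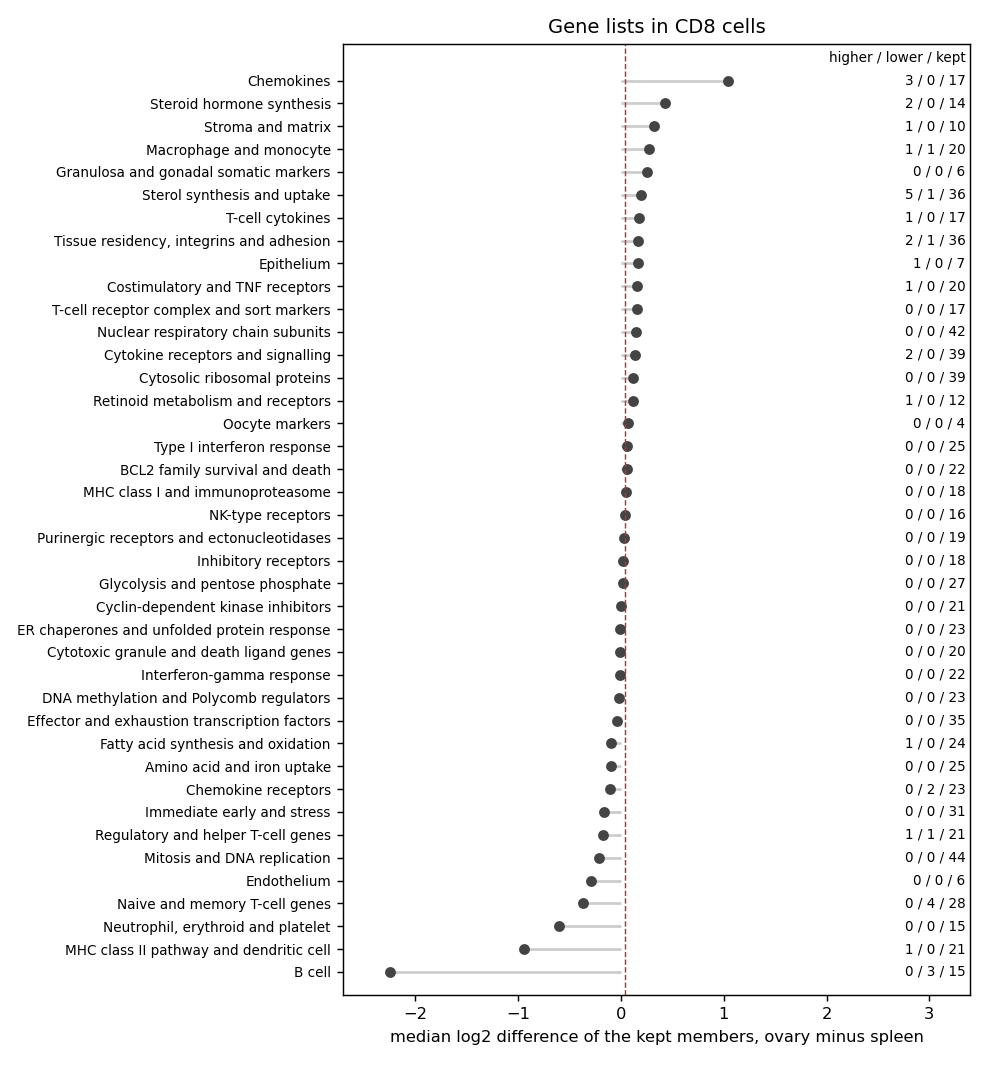
Median log2 difference, ovary minus spleen (x axis), of the measured members of 40 gene lists, with the number called higher, called lower and measured at the right, and the median over all features (0.04) as a dashed line. Chemokines lie farthest right at 1.04 and B-cell genes farthest left at -2.25. Of these, 10 of 17 and 8 of 15 were well above background on all 7 arrays.

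The CD4+ cells of the same study allow the same tissue comparison in another lineage, with 2 arrays a group and no array in common. There 183 features were called (0.739%), and of the 105 called in CD8+ cells 91 (86.7%) had the same sign in CD4+ cells, beside 49.2% of all features, and 31 were also called in the same direction (15 higher, 16 lower). Hsd3b1 was at 0.62 to 0.76 in ovarian and -5.28 to -4.58 in splenic CD4+ cells (difference 5.62, adjusted p = 0.00398), Il13 had a difference of 5.09, Ccl12 of 3.96 and Ccl7 of 7.22, each with an adjusted p of 0.00398. Me1 had a difference of 4.25 and Sqle of 1.38 (adjusted p = 0.0268 and 0.0326), and Cxcr4, Dapl1, Tcf7 and Il7r of -1.80, -1.37, -0.92 and -1.92 (adjusted p = 0.00856, 0.0341, 0.0264 and 0.0168).

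Ppp2r2c, Mgp and Nefl were not above background on any allogeneic CD4+ array of either tissue. The lowest level that counted as well above background was -3.78 and -2.69 on the ovarian and -3.95 and -2.50 on the splenic CD4+ arrays, so a Nefl level like that of splenic CD8+ cells could not have been seen on 2 of these 4 arrays. Vipr2 was at -0.24 to 0.40 in ovarian and -0.04 to 0.26 in splenic CD4+ cells, and Glis1 had a difference of 0.17. A test of the difference between lineages, the tissue difference of CD8+ minus that of CD4+ cells, called no feature (0% of 24769, limma, 2857 at an unadjusted p under 0.05, and 0 called in the averaged fit as well). That count changed with single arrays: it was 1500 without splenic CD4+ replicate 2, 48 without splenic CD4+ replicate 1, 90 and 124 without ovarian CD4+ replicates 1 and 2, and 58 without splenic CD8+ replicate 3. The difference between lineages was -1.79 for Glis1 (adjusted p = 0.0536), and 2.88 and 3.42 for Adh1 and Ppp2r2c (adjusted p = 0.081 each).

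**Figure D5:**
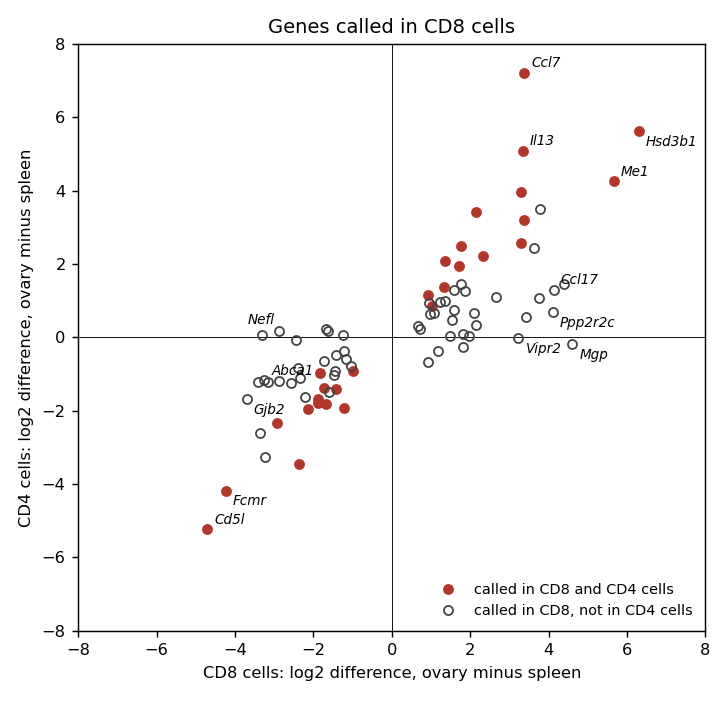
Log2 difference, ovary minus spleen, in CD8+ cells (x axis) and in CD4+ cells (y axis) for the 83 genes called in CD8+ cells, filled where also called in CD4+ cells. Hsd3b1 lies at 6.30 and 5.62, Ccl7 at 3.38 and 7.22, and Ppp2r2c at 4.11 and 0.69.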

How the data were processed

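The authors deposited Agilent Feature Extraction output (11.5.1.1, per the file headers) for 16 arrays of 55681 probes. The processed signal in those deposited files is an intensity per spot from which the scanner software had subtracted the background, per the file headers. A deposited table of log2 values, centred by the authors on a baseline the sources used here do not give, correlated with the scanner values at 0.9995 or more and served as an alternative. Here log2 intensity minus the 75th percentile of each array was used, and outlier spots were left out. Probes well above background on every array of either tissue were kept (28747). A gene bright in 1 tissue alone passes this filter, which favours larger differences among such genes. The brightest probe stood for each gene, and probes without a symbol for themselves, giving 24769 features. limma 3.58.1 in R 4.3.3 was fitted with 1 mean per group over all 16 arrays, with Benjamini-Hochberg adjustment and a threshold of 0.05. Means and tests were checked on simulated data. The simulated arrays were drawn independently of each other, so the check does not cover replicates that share their RNA. Precision is limited by the number of arrays. The genes named are the 20 largest called differences in each direction, all called members of 40 lists, the nearest members not called, and a set of T-cell genes, shortened to those the text needs, and some genes are not reported here. The members and lists were chosen with earlier results of these data known.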

Additional observations from a re-analysis of the deposited data

Results flagged for a closer look

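The 4 ovarian arrays were searched for a single array far from the other 3, by the gap to its nearest neighbour over the whole range (Dixon's test at the 95% level), for the 109 genes the text or its alternatives follow. Chance gives such a gap in about 1 group in 20 where the 4 arrays are independent. That rate does not apply if replicates 1, 2 and 4 share their RNA, and genes on the same arrays are not independent. Such a gap was found for 22 genes, and the array that stood apart was ovarian replicate 3 for 18 of them, replicate 1 for 3, replicate 2 for 1 and replicate 4 for none.

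Among genes higher in ovarian cells, replicate 3 was the low array for Ppp2r2c (0.15), Vipr2 (-0.67), Zmynd15 (-0.78) and Cdh1 (-1.03), and the high array for Adh1 (-2.67). Hsd3b1 was highest on replicate 1 (0.61), and Apoe (1.19) and Grrp1 (-4.39) were lowest there. Among genes lower in ovarian cells, replicate 3 was lowest for Ccr6 (-0.15), Colq (-0.81) and Sostdc1 (-2.94) and highest for Ces2c (-4.48) and for Fcrla (-4.59), a B-cell gene. Treml2 was lowest on replicate 2 (-5.52).

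Genes that were not called also carried such an array. Replicate 3 was lowest for the inhibitory receptors Pdcd1 (6.51), Havcr2 (4.19) and Lag3 (3.28), for the chemokine receptors Cxcr6 (8.02) and Ccr9 (0.71), and for the ATP receptor P2rx7 (2.12). It was highest for the B-cell gene Ms4a1 (-1.41) and for Star (-1.66).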

How the results depend on the processing

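The count of 105 calls (54 higher, 51 lower in ovarian cells) was 100 under normexp, 103 with the deposited series values, 101 with a filter on any group, 130 with the mean of a gene's probes, 117 with a trended and robust variance and 102 with outlier spots kept. Averaging ovarian replicates 1, 2 and 4, which was chosen after seeing the data, left 33 (13 higher, 20 lower), 32 of them among the 105. Leaving out 1 array gave 47 to 227 calls, 21 to 96 higher and 26 to 134 lower. Quantile normalization gave 183 (88 and 95), no filter on dim probes 61 (29 and 32), a filter on all 7 arrays 59 (27 and 32), and the groups compared alone 164 (84 and 80). With the groups compared alone, 78 of the 105 calls held. The slide as a block gave 193 (87 and 106). Slide 1 alone gave 245 (169 lower), a split of 31% higher calls, and slide 2 alone, with 2 ovarian arrays and 1 splenic array, gave 0 (1221 at an unadjusted p under 0.05). Array weights gave 12053 (6858 and 5195), but their estimation stopped before it converged and put nearly all weight on 1 splenic array, so this count has no use.

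The labels do not say whether arrays of the same replicate number belong together. The deviations of ovarian and splenic arrays with the same number correlated at 0.06, 0.15 and 0.32. Only ovarian replicate 3 correlated best with its own number. Such correlations cannot decide whether the numbers mark pairs. With a replicate block 73 features were called (28 and 45), and 1 in the difference between lineages. Alternatives chosen after seeing the data gave 81 lower calls with a common signal floor, 207 (99 and 108) without the arrays with a 75th percentile under 100, and 226 (149 lower) without the 2 dimmest CD8 arrays. The share of higher calls, 51.4% in the fit reported, was 38.4% with the replicate block, 35.6% without ovarian replicate 3, 34.1% without the 2 dimmest CD8 arrays and 39.4% in the averaged fit.

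The difference between lineages, 0 calls, was 9 under quantile normalization, 27 under normexp, 9 with a filter on all 7 arrays, 6 with a filter on any group, 7 with the slide as a block, 1942 on slide 1 alone, 208 with the signal floor, 1323 without the arrays with a 75th percentile under 100, 7 without the 2 dimmest CD8 arrays, and 0 to 1500 when 1 array was left out. It is therefore not settled by these arrays. The cause of these shifts was not tested. For 109 genes followed through all alternatives, 3237 values were recomputed. Of these, 2644 kept their call, or stayed uncalled and within the ovarian SD of the reported difference. Another 330 lost a call, 112 gained one in the same direction, and 151 stayed uncalled but moved further or lay wholly at the floor. In 0 did a called gene change sign or an uncalled gene become called in the opposite direction. Changes of sign in genes that stayed uncalled were not counted. At the common signal floor, 15 of the 83 called genes lie wholly at the floor, so they rest on signals dimmer than the dimmest array could measure.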

Other observations

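Several genes of the lists that the report does not name came near the threshold in the 4-against-3 fit without passing it. Adora3, the A3 adenosine receptor, had a difference of 2.69 (adjusted p = 0.059) and P2rx7, the ATP-gated channel, of 1.54 (adjusted p = 0.095). Lyz1, a lysozyme of myeloid cells, had a difference of 2.67 (adjusted p = 0.071). Slamf6, a marker of stem-like CD8+ cells, had a difference of -0.84 (adjusted p = 0.10), and Cpt1a, which admits fatty acids to mitochondria, of -0.86 (adjusted p = 0.091).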
